A study of Homo sapiens with 32 samples.

Results

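The 39 protein-coding genes of the 4 human HOX clusters were examined, out of 60107 genes in the count table, in 32 libraries of 2 human cell lines. Members were taken as every table row whose Ensembl identifier carries a protein-coding symbol made of HOX, a cluster letter from A to D and a number, which gave 11 HOXA, 10 HOXB, 9 HOXC and 9 HOXD genes. HEK293T is a line from human embryonic kidney that carries a viral large T antigen, and U2OS is a human osteosarcoma line. The study dealt with protein aggregation after loss of the DNA damage kinase ATM or poisoning of topoisomerase I with camptothecin (CPT) and measured RNA levels alongside, and its methods describe the repeats as independent biological repeats. RNA was counted by QuantSeq, a 3′ tag method in which each transcript gives 1 tag near its end, so levels in CPM, a library's counts for a gene scaled to a common total of counts on genes, do not grow with transcript length.

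By the labels, 4 libraries came from HEK293T cells with ATM knockout, 4 from CPT-treated HEK293T, 8 from DMSO-treated HEK293T, 4 from U2OS with ATM knockout, 4 from U2OS wild type, 4 from CPT-treated U2OS and 4 from DMSO-treated U2OS cells. The labels give HEK293T cells 24 h of CPT or DMSO followed by 48 h of recovery. They give U2OS cells 72 h of untreated growth. Their protocol text does not describe the CPT treatment that the sample names of libraries 26 to 29 give for U2OS. For genotoxic drugs the study's methods give a change of medium after 24 h and harvest after another 48 h. RNA and mass spectrometry samples came from the same cells, and for the latter CPT was dosed higher in U2OS than in HEK293T. The U2OS knockouts in the study's methods are picked CRISPR clones. Libraries 18 to 21 are labelled HEK293T ATM knockout, while the study's text describes RNA-seq of HEK293T after the ATM inhibitor KU-55933. Its methods list ATM knockouts of HEK293 and U2OS cells and none of HEK293T. Both names are given here. Each library goes by its title number, which runs from 1 to 33 without 9.

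The profiles went against the labelled line in 14 of the 32 libraries, all of them among the 16 numbered 1 to 17. Over genes outside the HOX clusters, each library had a Spearman rank correlation of at least 0.940 with the mean of libraries 22 to 25 (labelled HEK293T DMSO) or of libraries 30 to 33 (labelled U2OS DMSO), and of at most 0.797 with the other. Libraries 1 to 8 were nearer U2OS and libraries 10 to 17 nearer HEK293T, and among these the label fitted the profile only for libraries 1 and 17. The summed level of 6 U2OS markers was 28.8 to 130 CPM in the 16 HEK293T-like libraries and 701 to 1497 CPM in the 16 U2OS-like libraries. The summed level of 4 HEK293T markers was 82.0 to 125 and 16.9 to 36.0 CPM. Among them only LIN28B had separate ranges, at 61.0 to 102 CPM in the HEK293T-like and 6.35 to 18.5 CPM in the U2OS-like libraries. The ranges overlapped for PAX2 (3.10 to 9.42 and 1.64 to 8.66 CPM) and SALL1 (12.5 to 19.5 and 4.37 to 13.3 CPM). SOX11 was at 0 to 1.10 CPM in the HEK293T-like and 0.811 to 3.44 CPM in the U2OS-like libraries. Libraries 1 to 17 are therefore compared as sets of numbered libraries, and no direction for a treatment or genotype is drawn from them. Depth ran from 1232674 to 6362433 counts on genes per library, so that 3 counts were worth 0.472 to 2.43 CPM.

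HOX genes encode homeodomain transcription factors that give cells along the head-to-tail axis their identity. They lie in 4 clusters, HOXA (chromosome 7), HOXB (chr17:48528526-48729178), HOXC (chr12:53938765-54056030) and HOXD (chr2:176092891-176190907 in GRCh38, from the GENCODE 29 annotation), and genes with the same number in different clusters are paralogues. Low-numbered genes, at one end of each cluster, act towards the head and high-numbered genes towards the tail and the limb tips. Polycomb proteins keep silent stretches of a cluster off, MLL-type methyltransferases keep active stretches on, and retinoic acid opens the low-numbered end during development. Cultured cells usually keep a fixed combination of active HOX genes that reflects their origin.

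The neighbouring genes HOXD13, HOXD12 and HOXD11 showed the sharpest contrast within one cluster, and the 250 bases before each RefSeq start site (GRCh38.p14, plus strand) are printed for that reason, with CG dinucleotides in capitals. HOXD13 was at 46.2 CPM or more in HEK293T under DMSO and at 0 or 1 count in U2OS under DMSO, HOXD12 had no count in either set of libraries and HOXD11 was expressed in both. The HOXD13 window is chr2:176092471-176092720, that of HOXD12 is chr2:176099545-176099794 and that of HOXD11 is chr2:176107030-176107279.
HOXD13: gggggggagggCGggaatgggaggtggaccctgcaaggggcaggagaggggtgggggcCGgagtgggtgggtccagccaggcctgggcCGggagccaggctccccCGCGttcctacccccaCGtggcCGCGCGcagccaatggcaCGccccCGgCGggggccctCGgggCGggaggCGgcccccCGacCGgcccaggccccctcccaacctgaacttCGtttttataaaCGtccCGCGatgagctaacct
HOXD12: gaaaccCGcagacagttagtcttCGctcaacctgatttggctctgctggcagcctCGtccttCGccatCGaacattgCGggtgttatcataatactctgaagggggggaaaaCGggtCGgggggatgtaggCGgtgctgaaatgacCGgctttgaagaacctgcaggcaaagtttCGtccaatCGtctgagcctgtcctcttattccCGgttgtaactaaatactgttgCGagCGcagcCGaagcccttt
HOXD11: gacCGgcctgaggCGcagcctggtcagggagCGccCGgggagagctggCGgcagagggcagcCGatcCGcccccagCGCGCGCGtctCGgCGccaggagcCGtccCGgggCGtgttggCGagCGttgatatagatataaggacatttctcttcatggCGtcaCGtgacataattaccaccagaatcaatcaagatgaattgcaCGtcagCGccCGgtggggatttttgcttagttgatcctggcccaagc
The windows held 21, 16 and 23 CG dinucleotides for HOXD13, HOXD12 and HOXD11, against a median of 11 over 35114 RefSeq promoter windows of the same length. GC content was 74%, 53.2% and 61.6% in the same order. The letters TATAAA, searched on both strands, were in the HOXD13 window and in neither of the others, and 10.72% of all windows hold them. All 3 windows were thus richer in CG than the median window, including that of HOXD12.

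**Figure D1:**
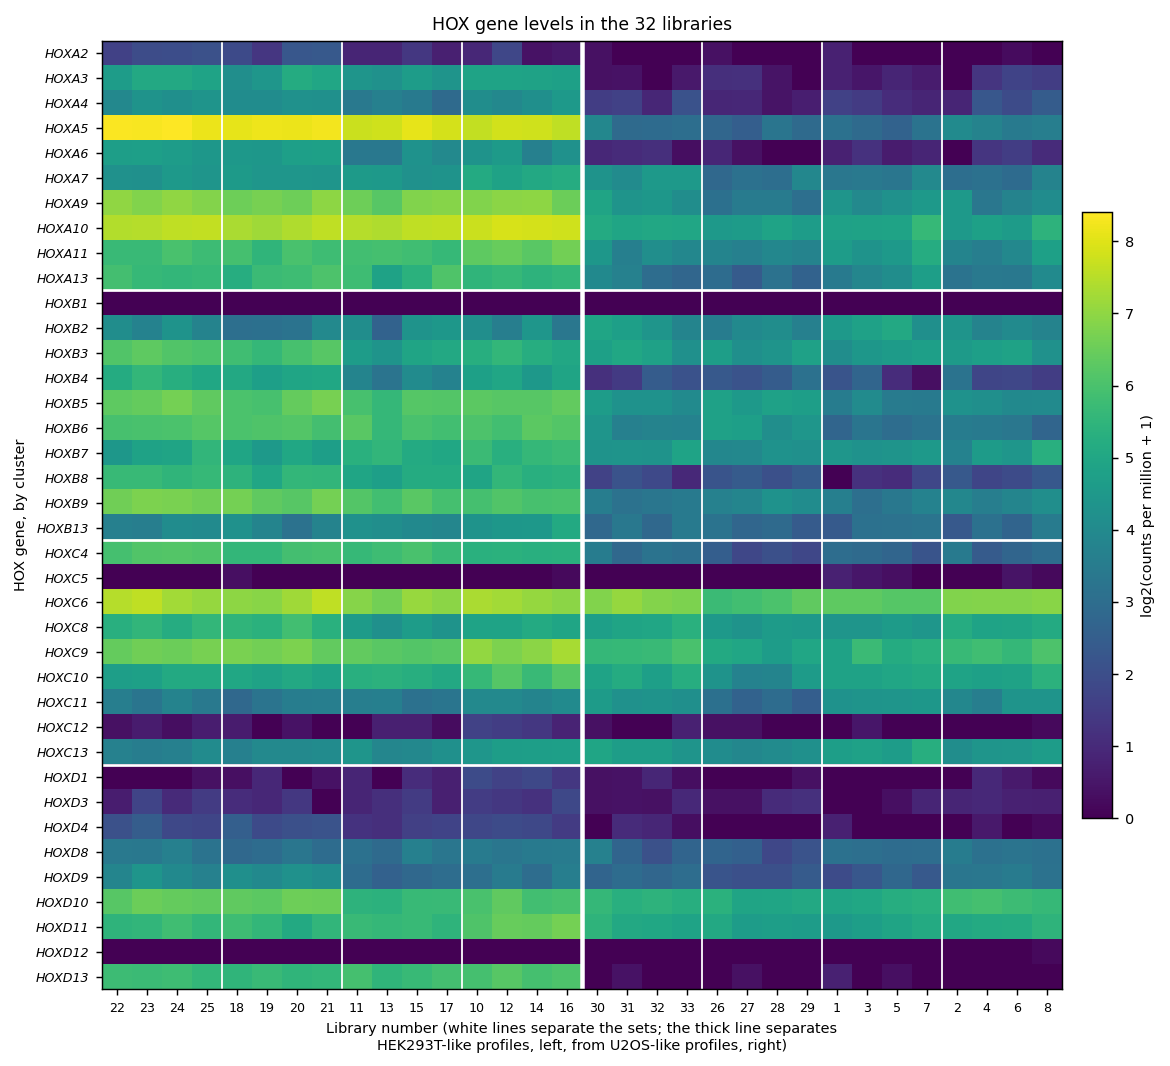
Level of 38 of the HOX genes (rows, by cluster) in each of the 32 libraries (columns, by library number), as log2(CPM + 1), with HEK293T-like libraries left of the thick line and U2OS-like libraries right of it. HOXA5, HOXA10, HOXB9 and HOXD13 are brighter on the left, HOXC6 is bright on both sides, and HOXB1 and HOXD12 are dark throughout.

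In HEK293T cells under DMSO, libraries 22 to 25, 29 of the 39 genes averaged at least 10 CPM and 14 at least 50 CPM. HOXA was the most expressed cluster, with a summed level of 830 ± 34.5 CPM (SD, n = 4), followed by HOXB at 465 ± 20.2 CPM, HOXC at 419 ± 21.2 CPM and HOXD at 211 ± 15.8 CPM. The ranges of HOXB (437 to 481 CPM) and HOXC (406 to 450 CPM) overlapped, while those of the other neighbours in this order did not. HOXA5, which is needed for lung development, alone gave 38.4% of the HOXA level, and HOXA10, a regulator of the reproductive tract, gave 22.4%. HOXB9 led HOXB with 21.5%, HOXC6 led HOXC with 39.2% and HOXD10 led HOXD with 39.05%. HOXD13, the gene of digit patterning, was second in HOXD with 24.6%.

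In U2OS cells under DMSO, libraries 30 to 33, 17 genes averaged at least 10 CPM and 2 at least 50 CPM. HOXC was the most expressed cluster there, at 284 ± 10.7 CPM, followed by HOXB at 124 ± 12.4, HOXA at 112 ± 18.1 and HOXD at 89.6 ± 13.01 CPM, and these last 3 had overlapping neighbours in the order. HOXC6 gave 41.1% of the HOXC level, HOXD10 46.1% and HOXD11 37.8% of the HOXD level, HOXA10 28.1% of HOXA and HOXB3 20.4% of HOXB. HOXC6 and HOXD10 thus led their clusters in both of these sets, while HOXA5 and HOXB9 led theirs only in libraries 22 to 25 of the 2. The order differed in other HEK293T-like sets. In libraries 11, 13, 15 and 17 HOXA5, HOXB9 and HOXC6 led, but HOXD13 led HOXD at 52.9 CPM beside 45.9 CPM for HOXD10. In libraries 10, 12, 14 and 16 the leading genes were HOXA10, HOXB5, HOXC6 and HOXD11. Over all 4 clusters the summed level was 1925 ± 57.9 CPM in HEK293T and 611 ± 38.1 CPM in U2OS.

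Some members were hardly seen in either line. HOXB1, an early hindbrain gene, had 0 counts in all 32 libraries, and HOXD12 had 1 count, in library 8. HOXC5 was at or below 0.706 CPM and HOXC12 at or below 2.14 CPM in every library, and HOXD3 reached at most 2.51 CPM, so these 3 were detected at low levels in some libraries. In 1 library a count of 0 allows a level of up to 2.43 CPM at the shallowest depth and 0.472 CPM at the deepest. For HOXB1 the 32 libraries together set a lower bound on the level allowed than any 1 of them. A count of 0 still does not show these genes to be off.

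U2OS and HEK293T were then compared under DMSO (libraries 30 to 33 against 22 to 25), with the edgeR quasi-likelihood test over all genes where a call needed an adjusted p under 0.05 together with a log2 fold change above 1 or below -1. Of the 35 members with enough counts to be tested, 20 were lower and 2 higher in U2OS, where 39.9% of all genes tested were called (18.1% lower and 21.8% higher). HOXA and HOXB genes made up most of these, with 10 of 11 HOXA genes and 6 of 9 tested HOXB genes lower. HOXC had 1 gene lower and 2 higher of 8, and HOXD had 3 lower of 7. The members' median log2 fold change was -1.26, beside 0.01 for all genes tested. By the adjusted p alone 23 members were lower and 3 higher, where 62.1% of all genes passed (30.1% lower, 32% higher).

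HOXD13, which patterns the digits, stood at 53.8, 52.3, 55.1 and 46.2 CPM in HEK293T libraries 22 to 25 and at 0, 0.344, 0 and 0 CPM in U2OS libraries 30 to 33. The groups were far apart, with 739 counts against 1 count. This gives a 713-fold higher level in HEK293T with a 95% exact counting interval of 128 to 28210, which covers counting error only. Its neighbour HOXD11, which shapes the forearm, was at 43.1, 44.8, 55.6 and 45.9 CPM in HEK293T and at 43.2, 33.03, 31.1 and 28.1 CPM in U2OS, with overlapping groups and a log2 fold change of -0.27 (SE 0.13, adjusted p 0.0777). HOXD10, the cluster's leading gene, was lower in all 4 U2OS libraries (37.5 to 47.2 against 73.0 to 91.4 CPM) but by less than the cutoff (log2 fold change -0.77, SE 0.12, adjusted p 1.067e-06). HOXD10 and HOXD11 share exon sequence on the same strand, so tags in the shared part cannot be assigned to 1 of them.

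Among the HOXA genes, HOXA5 had the highest level in these HEK293T libraries, at 331, 318, 338 and 286 CPM, against 13.9, 6.54, 6.74 and 7.21 CPM in U2OS. Every U2OS library was far below every HEK293T library, and the log2 fold change was -4.99 (SE 0.16, adjusted p 7.213e-24). HOXA3, a gene of the pharyngeal arches and thymus, fell from 23.9, 32.6, 32.6 and 28.4 CPM to 0.309, 0.344, 0 and 0.481 CPM (log2 fold change -6.28, SE 0.34, adjusted p 1.868e-17). HOXA6, between HOXA5 and HOXA7, was at 20.7 to 25.7 CPM in HEK293T and at 0.240 to 1.17 CPM in U2OS (log2 fold change -4.62, SE 0.29, adjusted p 9.9e-16). HOXA10 was at 174, 175, 194 and 199 CPM against 34.6, 29.6, 31.9 and 30.5 CPM (log2 fold change -2.33, SE 0.12, adjusted p 3.365e-18). It was the highest HOXA gene in U2OS. HOXA7 was the only HOXA gene that was not lower, at 17.7 to 22.5 CPM in HEK293T and 15.5 to 22.4 CPM in U2OS (log2 fold change 0.25, SE 0.17, adjusted p 0.196). HOXA2, with 40 counts against 1, was 38.6-fold higher in HEK293T with a wide counting interval of 6.54 to 1563. HOXA3, HOXA4, HOXA6, HOXA9 and HOXA10 share exon sequence on the same strand with other annotated genes, so the split of tags there is uncertain.

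The HOXB cluster was uneven. HOXB8, known from blood progenitors and microglia, was at 49.4, 49.4, 44.1 and 48.3 CPM in HEK293T and at 2.16, 3.44, 2.64 and 0.961 CPM in U2OS (log2 fold change -4.19, SE 0.22, adjusted p 5.968e-18). HOXB4, used to expand blood stem cells, was at 35.0, 46.3, 37.3 and 31.1 CPM against 1.23, 1.72, 4.39 and 3.36 CPM (log2 fold change -3.52, SE 0.24, adjusted p 9.56e-15). HOXB9 was at 95.1, 107, 104 and 94.8 CPM against 10.8, 7.91, 8.79 and 9.85 CPM (log2 fold change -3.18, SE 0.14, adjusted p 1.201e-19). HOXB5 and HOXB6 were lower by -1.94 and -1.99 on the log2 scale. At the low-numbered end HOXB3 was lower by less (68.2, 79.1, 68.6 and 64.6 against 26.2, 30.97, 26.95 and 17.5 CPM, log2 fold change -1.26, SE 0.14, adjusted p 1.616e-09). HOXB2, a hindbrain gene, was higher in U2OS without reaching the cutoff (log2 fold change 0.74, adjusted p 0.00124), and HOXB7 did not pass the test (-0.28, adjusted p 0.206). HOXB13, the prostate-associated last gene of the cluster, was lower in U2OS by less than the cutoff (-0.54, adjusted p 0.0277). HOXB3 shares exon sequence on the same strand with HOXB4 and HOXB6, so the split among these genes is uncertain.

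Past the cutoff, calls in both directions were found in the HOXC cluster. HOXC4 was at 60.4, 69.4, 70.9 and 67.8 CPM in HEK293T and at 10.5, 6.19, 8.203 and 7.45 CPM in U2OS (log2 fold change -2.82, SE 0.16, adjusted p 3.75e-17). At the other end of the cluster HOXC11 was higher in U2OS, at 23.5, 18.2, 19.04 and 17.1 CPM against 11.1, 8.57, 12.5 and 9.48 CPM (log2 fold change 1.11, SE 0.18, adjusted p 1.554e-06), as was HOXC13, a gene of hair and nails, at 19.5 to 29.6 against 10.9 to 15.7 CPM (log2 fold change 1.18, SE 0.17, adjusted p 2.737e-07). Neither of these last calls reached the cutoff when libraries were scaled by total counts alone, which lowered the median of all genes by 0.22, although both kept their direction and an adjusted p under 0.05 (HOXC11 0.89, adjusted p 9.431e-05, HOXC13 0.96, adjusted p 1.955e-05). HOXC6, the leading HOXC gene, was at 178, 193, 151 and 134 CPM in HEK293T and at 113, 135, 114 and 106 CPM in U2OS with overlapping groups (log2 fold change -0.26, SE 0.12, adjusted p 0.0523). HOXC6 shares exon sequence with HOXC4, HOXC5 and HOXC9, so the split among these genes is uncertain.

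**Figure D2:**
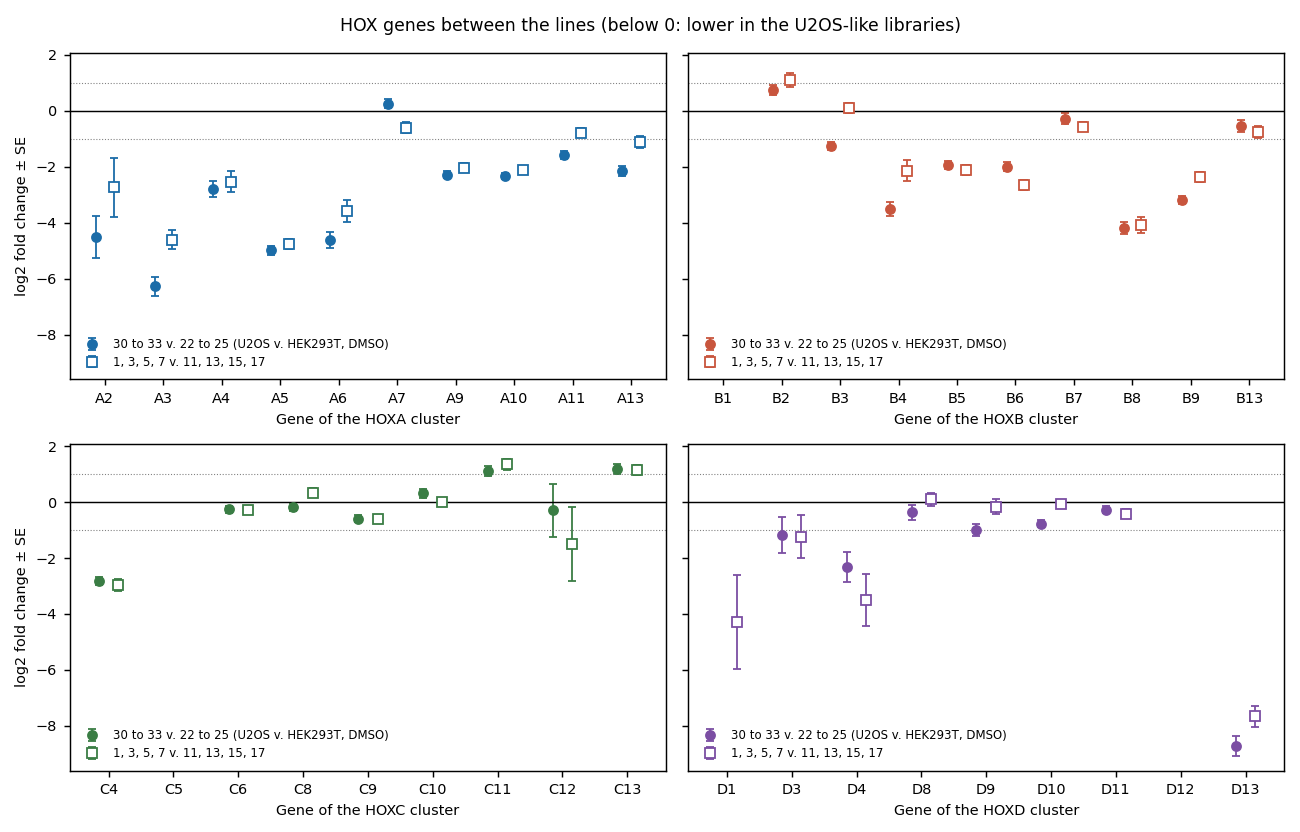
Log2 fold change ± SE of the tested HOX genes, by cluster, for U2OS against HEK293T under DMSO (filled circles, libraries 30 to 33 against 22 to 25) and for libraries 1, 3, 5 and 7 against 11, 13, 15 and 17 (open squares), with dotted lines at the cutoffs of -1 and 1. HOXD13 lies lowest in both, and HOXC11 and HOXC13 lie above 1 in both.

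By number along the clusters, genes 4 to 8 had the largest shift between the lines, with a median log2 fold change of -2.16 and 9 of 14 tested members lower. Genes 1 to 3 had a median of -1.25 with 4 of 6 lower, and genes 9 to 13 a median of -0.77 with 7 of 15 lower and 2 higher. Over all genes tested 18.1% were called lower and 21.8% higher. The order of these 3 medians was not tested.

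The same genes were examined in libraries that share none with that comparison, 1, 3, 5 and 7 (U2OS-like) against 11, 13, 15 and 17 (HEK293T-like). Of 36 members tested, 18 were lower and 3 higher in the U2OS-like set, where 44.6% of all genes were called (20% lower, 24.6% higher), and the members' median was -1.37, or -1.22 with HOXD1 at the bound that its 0 counts allow. HOXD13 was at 60.3, 43.8, 49.3 and 58.3 CPM in libraries 11, 13, 15 and 17 and at 0.706, 0, 0.273 and 0 CPM in libraries 1, 3, 5 and 7. With 1102 counts against 2, the ratio was 292 with a counting interval of 80.6 to 2413. HOXA5 (log2 fold change -4.77, SE 0.18), HOXA3 (-4.61, SE 0.34), HOXB8 (-4.09, SE 0.29), HOXA6 (-3.58, SE 0.39), HOXC4 (-2.97, SE 0.21), HOXB6 (-2.65, SE 0.19) and HOXB9 (-2.36, SE 0.18) were again lower, with adjusted p at or below 5.164e-10. HOXC11 (1.34, SE 0.20) and HOXC13 (1.16, SE 0.18) were again higher. HOXB2 was the third higher call (1.08, SE 0.25, adjusted p 2.968e-04), although its 4 libraries overlapped with the others. HOXB3 and HOXD10, lower or tending lower in U2OS above, stood at 0.11 (SE 0.17, adjusted p 0.591) and -0.06 (SE 0.14, adjusted p 0.749) here. HOXA10 was lower (-2.11, SE 0.15, adjusted p 8.871e-15) and HOXC6 did not pass the test (-0.28, SE 0.13, adjusted p 0.0592). Scaling by total counts alone shifted the median of all genes by -0.34 and left 1 higher and 20 lower. HOXD1, at 13 counts against 0, was at least 2.295-fold higher in the HEK293T-like set, with 3 counts over the group as the floor.

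Taking all 8 libraries labelled HEK293T DMSO as controls, of which 3 had U2OS-like profiles, left 2 members called between the lines, both lower. Calls over all genes fell from 7872 to 339 with the same change of controls.

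**Figure D3:**
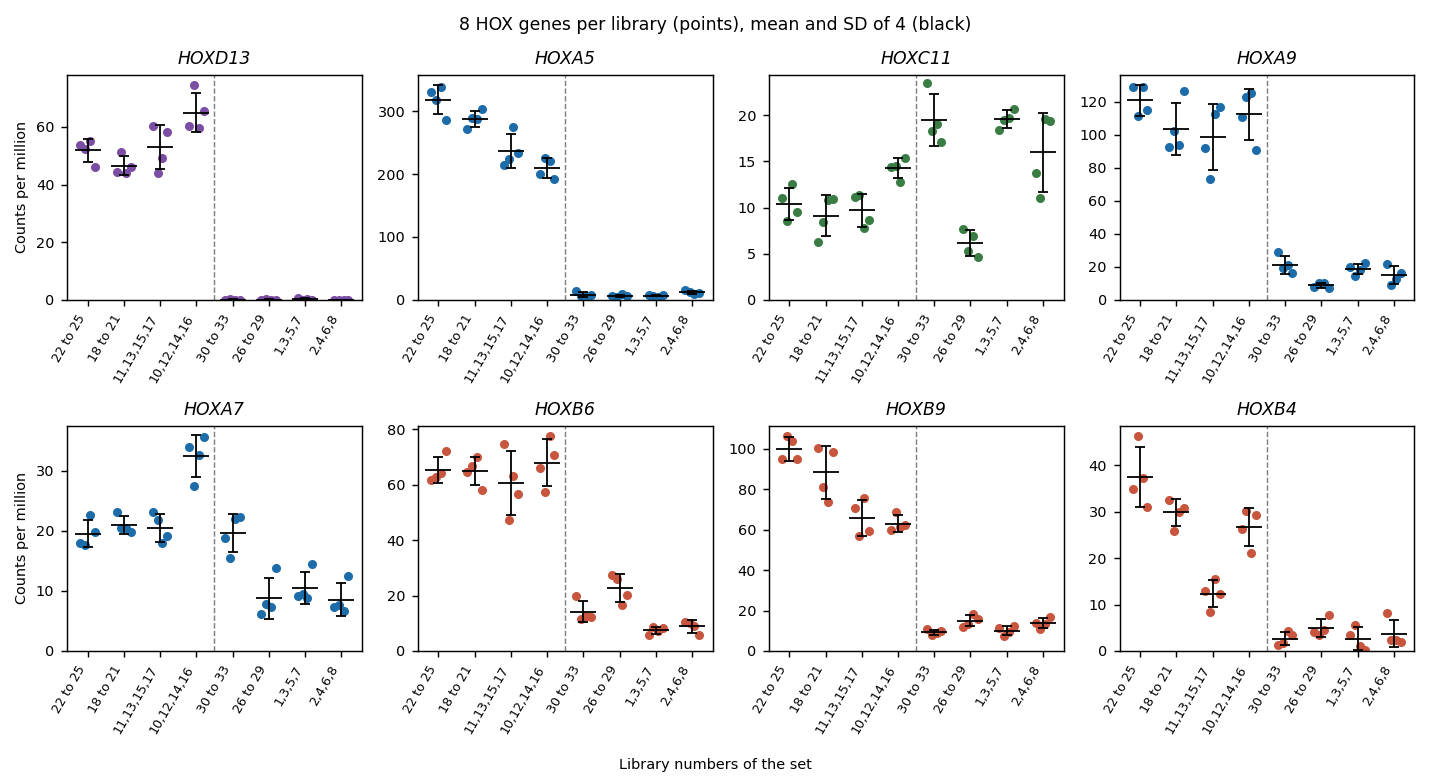
Level in CPM of 8 HOX genes in each library (points), with mean and SD of the 4 libraries of a set in black and the dashed line between HEK293T-like sets (left) and U2OS-like sets (right). HOXD13 and HOXA5 are near 0 on the whole right side, and HOXC11, HOXA9 and HOXA7 are lower in CPT-treated U2OS (26 to 29) than in its DMSO set (30 to 33).

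CPT treatment of U2OS cells (libraries 26 to 29 against the DMSO libraries 30 to 33) set topoisomerase I poisoning against the solvent. No member rose past the cutoff and 4 of 32 tested members fell, HOXC11, HOXC4, HOXA9 and HOXA7, where 13.5% of all genes were called (5.5% lower and 7.97% higher). The members' median log2 fold change was -0.33, beside 0.01 for all genes tested. RLE scaling added HOXB4 as 1 higher call (log2 fold change 1.0003), and the likelihood ratio test, scaling by total counts alone and 1 fit of all libraries each added HOXA4 and HOXD4, giving 6 lower. With the adjusted p alone, 9 members were lower and 5 higher, where 31.9% of all genes passed (15.3% lower, 16.6% higher). The 5 higher members were all HOXB genes (HOXB4, HOXB5, HOXB6, HOXB8 and HOXB9), and 6 of the 9 lower members were HOXC genes. This comparison and that of the lines share libraries 30 to 33. ATM was at 63.3, 72.3, 85.5 and 74.5 CPM after CPT and at 87.7, 69.5, 78.2 and 55.03 CPM under DMSO, with overlapping groups.

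HOXC11 was at 7.65, 5.27, 6.93 and 4.68 CPM after CPT and at 23.5, 18.2, 19.04 and 17.1 CPM under DMSO. All CPT libraries were below all DMSO libraries, and the log2 fold change was -1.48 (SE 0.20, adjusted p 5.411e-07). HOXC4 was at 4.71, 2.48, 3.12 and 2.495 CPM against 10.5, 6.19, 8.203 and 7.45 CPM (log2 fold change -1.15, SE 0.28, adjusted p 0.00153). All 7 tested HOXC genes had a negative log2 fold change and none overlapped between the groups, where 49.5% of all genes tested had a negative value and 31.3% did not overlap (20.1% lower). HOXC6, the highest of them, was at 52.4, 57.7, 64.1 and 80.8 CPM against 113, 135, 114 and 106 CPM (log2 fold change -0.70, SE 0.13, adjusted p 5.818e-05). HOXC9 and HOXC10 had log2 fold changes of -0.66 and -0.73. The summed HOXC level was 157 ± 17.4 CPM after CPT and 284 ± 10.7 CPM under DMSO.

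HOXA9, a gene of blood stem cells and leukaemia, fell from 29.02, 19.3, 21.1 and 16.3 CPM to 7.65, 10.2, 10.4 and 7.49 CPM (log2 fold change -1.08, SE 0.19, adjusted p 4.622e-05). HOXA7 fell from 18.8, 15.5, 21.97 and 22.4 CPM to 6.18, 7.75, 7.27 and 13.7 CPM (log2 fold change -1.01, SE 0.22, adjusted p 3.951e-04). Both lay near the cutoff. HOXA7 missed it without library 26, 27, 28, 32 or 33, and HOXA9 without library 29 or 30, with adjusted p still under 0.05 each time. HOXA5 (-0.25, SE 0.25, adjusted p 0.508), HOXA10 (-0.20, SE 0.14, adjusted p 0.289) and HOXD10 (-0.14, SE 0.14, adjusted p 0.465) did not pass the test.

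Of the 9 tested HOXB genes, 5 were higher and 1 lower by the adjusted p alone. HOXB6 was at 27.4, 26.1, 16.6 and 20.3 CPM after CPT and at 19.8, 11.7, 12.6 and 12.3 CPM under DMSO, with only DMSO library 30 reaching into the CPT range (log2 fold change 0.87, SE 0.18, adjusted p 4.107e-04). HOXB9 was at 12.1, 13.3, 18.4 and 15.9 CPM against 10.8, 7.91, 8.79 and 9.85 CPM with no overlap (log2 fold change 0.83, SE 0.19, adjusted p 0.00111). HOXB4, HOXB5 and HOXB8 had log2 fold changes of 1.00, 0.60 and 0.96, below the cutoff. Tags in the exon sequence that HOXB3 shares with HOXB4 and HOXB6 cannot be assigned to 1 of them. HOXB3 stood at 0.00 (SE 0.17, adjusted p 0.993) and HOXB2 was lower by the adjusted p alone (-0.53, adjusted p 0.0391). Scaling by total counts alone shifted the median of all genes by -0.17 and left 2 of the HOXB genes, HOXB6 and HOXB9, higher by the adjusted p, beside 13 lower members. With the fold cutoff added, that scaling left 0 members higher and 6 lower, beside 0 and 4 with normalization factors. At the same 2 cutoffs all genes split into 1251 higher and 1535 lower calls, beside 1520 and 1049 with normalization factors. The share of all genes passing the adjusted p alone under that scaling is not given here. HOXD13 was at 0, 0.310, 0 and 0 CPM after CPT. The level of 3 U2OS markers also differed here, with CD44 at 382 against 65.3 CPM, CAV1 at 233 against 63.8 CPM and S100A6 at 296 against 144 CPM, and their part in the HOX values was not tested.

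**Figure D4:**
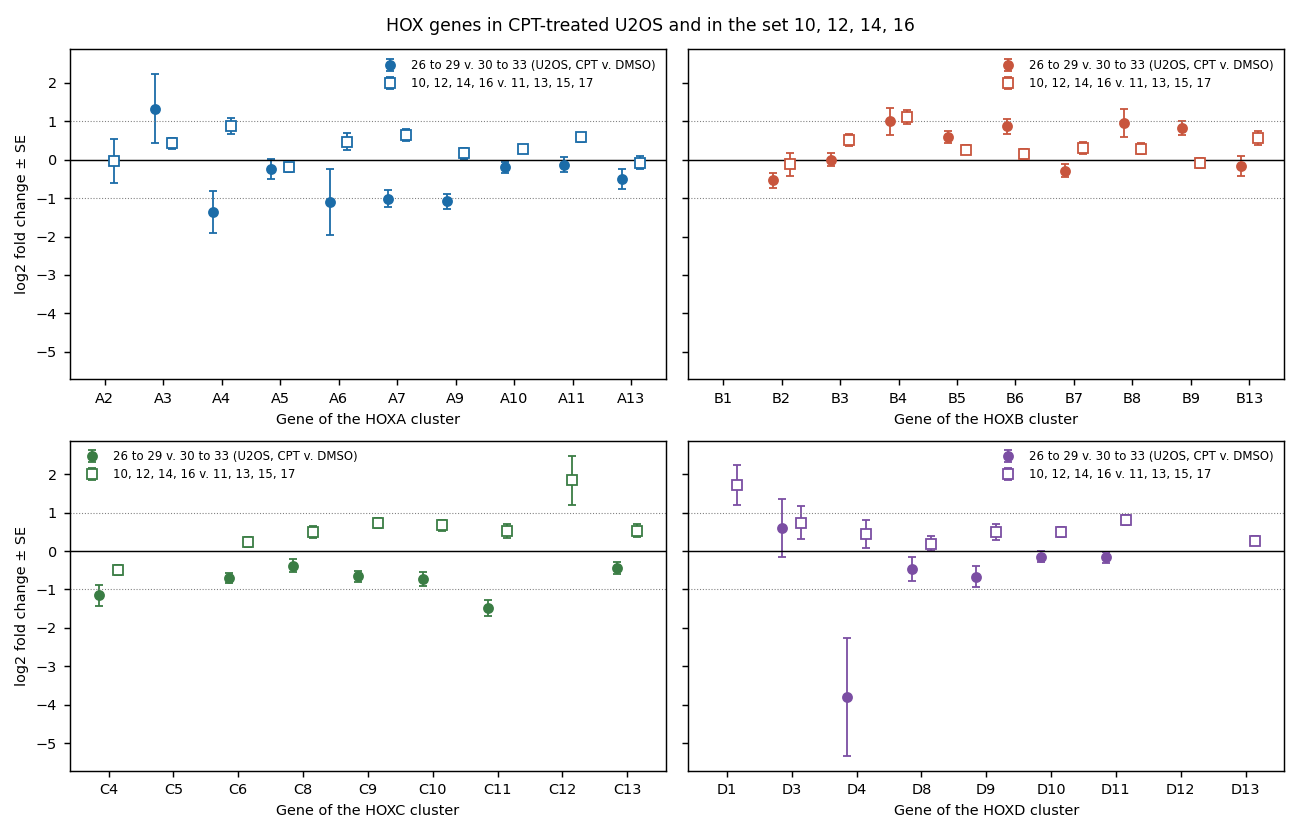
Log2 fold change ± SE of the tested HOX genes, by cluster, for CPT against DMSO in U2OS (filled circles) and for libraries 10, 12, 14 and 16 against 11, 13, 15 and 17 (open squares), with dotted lines at the cutoffs of -1 and 1. The 7 HOXC circles all lie below 0, 5 of the HOXB circles lie between 0.60 and 1.00, and the squares lie mostly above 0.

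Libraries 18 to 21 (labelled HEK293T ATM knockout, ATM inhibitor in the study's text) were compared with the HEK293T DMSO libraries 22 to 25. ATM itself was at 54.5, 55.7, 74.1 and 64.4 CPM against 72.4, 82.0, 58.9 and 57.8 CPM, and a 3′ tag does not test whether the gene was cut or the kinase inhibited. No member was called by edgeR's quasi-likelihood test, by its likelihood ratio test or by DESeq2, where 0% of all genes were called and 0.00543% (1 gene, lower) passed the adjusted p alone. At an unadjusted p under 0.05, which 5.53% of all genes passed, there were 2 members, HOXB2 (log2 fold change -0.65, SE 0.20) and HOXC4 (-0.29, SE 0.11), with adjusted p of 0.766 and 0.856. The 35 tested members spanned log2 fold changes from -0.73 to 0.24 with a median of -0.08.

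The leading HEK293T genes show how close the groups were. HOXA5 was at 271, 289, 287 and 303 CPM in libraries 18 to 21 and at 331, 318, 338 and 286 CPM in libraries 22 to 25 (log2 fold change -0.09, SE 0.10, adjusted p 0.964). HOXB9 (-0.12, SE 0.11, adjusted p 0.949), HOXC6 (-0.11, SE 0.12, adjusted p 0.964), HOXA10 (-0.09, SE 0.10, adjusted p 0.964), HOXB3 (-0.18, SE 0.12, adjusted p 0.917) and HOXD10 (0.10, SE 0.11, adjusted p 0.961) had overlapping groups too. HOXD13 was at 44.5, 51.2, 44.1 and 45.9 CPM in libraries 18 to 21. The summed level over the clusters was 1775 ± 140 CPM beside 1925 ± 57.9 CPM.

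Libraries 10, 12, 14 and 16 (labelled U2OS ATM knockout, HEK293T-like) were set against libraries 11, 13 and 15 (labelled U2OS wild type) and 17 (labelled HEK293T DMSO), all HEK293T-like. ATM was at 39.8, 39.5, 31.99 and 28.8 CPM in the first set and at 26.6, 21.2, 34.2 and 36.3 CPM in the second. Of 36 members tested, 4 were higher and 0 lower (edgeR quasi-likelihood test), where 14% of all genes were called (9.52% higher, 4.45% lower). At an unadjusted p under 0.05 there were 24 members, where 44.4% of all genes passed. By the adjusted p alone, 18 were higher and HOXC4 was the 1 lower (-0.49, SE 0.13, adjusted p 0.00453), where 34.9% of all genes passed (17.6% higher, 17.3% lower). DESeq2 also called 4 higher and 0 lower.

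HOXB4 was at 26.3, 30.2, 21.1 and 29.2 CPM against 12.97, 8.46, 15.6 and 12.2 CPM (log2 fold change 1.11, SE 0.18, adjusted p 3.993e-05), and at 0.99 without library 13. HOXC12 (23 counts against 8) and HOXD1 (34 against 13) were also called. Of the genes that led clusters in libraries 22 to 25 or 30 to 33, HOXA5 (-0.20, SE 0.11, adjusted p 0.172), HOXC6 (0.24, SE 0.12, adjusted p 0.132) and HOXB9 (-0.08, SE 0.12, adjusted p 0.636) did not pass the test. HOXA10 (0.27, SE 0.10, adjusted p 0.0450), HOXB3 (0.51, SE 0.16, adjusted p 0.0161) and HOXD10 (0.49, SE 0.13, adjusted p 0.00516) were higher by the adjusted p alone. U2OS markers were also higher in libraries 10, 12, 14 and 16, with 4 of 5 tested called and ANXA1 at 32.3 against 4.46 CPM, and their part in the HOX values was not tested.

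The contrast of CPT in U2OS and the contrast of these 2 HEK293T-like sets were compared in 1 fit. In the test of the difference 10 of 36 members were called, all with the more negative value in U2OS, where 11.9% of all genes were called (6.71% lower, 5.15% higher). HOXC11 differed by -2.002 (SE 0.28, adjusted p 5.086e-07), HOXA7 by -1.65 (SE 0.27, adjusted p 8.763e-06), HOXC10 by -1.40 (SE 0.25, adjusted p 2.482e-05), HOXC9 by -1.40 (SE 0.21, adjusted p 1.025e-06) and HOXA9 by -1.24 (SE 0.23, adjusted p 6.802e-05) on the log2 scale. HOXA4, HOXD1, HOXD4 and HOXD9 were also called. For HOXD4 the U2OS side held 0 counts after CPT against 7 under DMSO. HOXD1 had too few counts to be tested in the U2OS contrast alone and entered this fit through the HEK293T-like libraries. The U2OS side of both calls thus rests on counts near the floor. No HOXB gene was called, with HOXB9 (0.91, SE 0.22, adjusted p 0.00185) and HOXB6 (0.72, SE 0.24, adjusted p 0.0236) on the positive side of 0. The line, the condition and the number series of the libraries cannot be told apart here.

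Libraries 2, 4, 6 and 8 (labelled HEK293T CPT, U2OS-like) were set against library 1 (labelled U2OS wild type) and libraries 3, 5 and 7 (labelled HEK293T DMSO), all U2OS-like. ATM was at 61.7, 52.9, 54.7 and 34.2 CPM against 57.2, 68.4, 53.4 and 63.5 CPM. Of 32 members tested 1, HOXD9, was higher and 0 lower (edgeR quasi-likelihood test), where 5.24% of all genes were called (2.8% higher, 2.44% lower), and 17 members had an unadjusted p under 0.05 as did 25.4% of all genes. HOXD9 was at 8.92, 9.14, 10.2 and 8.08 CPM against 2.82, 3.89, 6.02 and 4.09 CPM, and its log2 fold change of 1.00 (SE 0.29, adjusted p 0.0130) lay at the cutoff. The call was lost without library 1, 3, 4 or 6. By the adjusted p alone 5 members were higher (HOXA5, HOXC6, HOXC8, HOXD9 and HOXD10) and 3 lower (HOXA11, HOXA13 and HOXB2), where 13% of all genes passed (6.43% higher, 6.56% lower). HOXC6 was at 113, 114, 114 and 121 CPM against 79.7, 78.7, 72.5 and 72.5 CPM with no overlap (log2 fold change 0.57, SE 0.15, adjusted p 0.00460). HOXD10 was at 56.0, 59.2, 53.1 and 48.3 CPM against 28.9, 31.2, 36.7 and 39.3 CPM (log2 fold change 0.62, SE 0.16, adjusted p 0.00626). HOXA5 had a log2 fold change of 0.73 (SE 0.26, adjusted p 0.0489). HOXB9 (0.44, SE 0.23, adjusted p 0.218), HOXB3 (0.06, SE 0.19, adjusted p 0.892) and HOXA10 (-0.22, SE 0.19, adjusted p 0.516) did not pass.

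The groups as labelled mix both kinds of profile. Libraries labelled HEK293T CPT (all U2OS-like) against the 8 labelled HEK293T DMSO gave 4 of 36 tested members lower, HOXA9 (log2 fold change -2.16, SE 0.58, adjusted p 0.0439), HOXA10 (-1.88, SE 0.52, adjusted p 0.0462), HOXA11 (-1.14, SE 0.28, adjusted p 0.0334) and HOXA13 (-1.64, SE 0.36, adjusted p 0.0226), where 5.77% of all genes were called (2.31% higher, 3.46% lower) and 7.76% passed the adjusted p alone (3.11% higher, 4.65% lower). HOXA9 averaged 14.97 against 82.0 CPM, and the groups overlapped for all 4 genes. HOXD13 had 0 counts in libraries 2, 4, 6 and 8 against 1003. The count of 4 went to 12 with the likelihood ratio test and 14 with DESeq2, to 0 without library 2, 4 or 6, to 1 without library 22, 23, 24 or 25, to 2 without library 8 or 17, and to 12, 14 and 15 without libraries 3, 5 and 7. Calls over all genes also went from 1193 to 2984 with the likelihood ratio test and 2903 with DESeq2. Libraries labelled U2OS ATM knockout (all HEK293T-like) against the 4 labelled U2OS wild type gave 1 higher of 36 by the edgeR quasi-likelihood test, where 3.23% of all genes were called (2.04% higher, 1.19% lower) and 3.98% passed the adjusted p alone (2.44% higher, 1.55% lower). The count was 0 without any 1 of libraries 10 to 16, while 3 members were called without library 1, the U2OS-like one. ATM averaged 35.0 CPM in the labelled knockouts and 34.8 CPM in the labelled wild type (adjusted p 0.906).

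Genes that act with or on the HOX clusters were followed by fixed lists. Between the lines, 3 of 9 tested TALE cofactors, the PBX, MEIS and PKNOX partners of HOX proteins on DNA, were lower in U2OS, with PKNOX2 at 0.233 against 13.7 CPM and MEIS2 at 13.8 against 42.4 CPM. Of 20 Polycomb genes 1 was higher and 2 lower, among them EZH2, the main H3K27 methyltransferase, at 51.3 against 157 CPM (log2 fold change -1.38, SE 0.12, adjusted p 7.98e-12). Of 13 MLL and H3K27 demethylase genes 2 were lower, KMT2C at 68.1 against 259.9 CPM and KDM6A at 9.82 against 32.1 CPM. The retinoic acid and CDX list had 8 lower and 2 higher of 15, with ALDH1A2, a retinoic acid synthesis enzyme, at 40.5 CPM in HEK293T and 0 counts in all 4 U2OS libraries, RARB, a retinoic acid receptor and target, at 15.6 against 0.343 CPM, and CDX2, an activator of central HOX genes, at 29.9 against 4.49 CPM. All of these shares stand beside the 39.9% of genes called between the lines. The lists differed in part in libraries 1, 3, 5 and 7 against 11, 13, 15 and 17, where 44.6% of all genes were called. There 2 TALE cofactors were higher and 4 lower, and 2 Polycomb genes were higher and 1 lower. Of the MLL and demethylase genes 1 was higher and 2 lower, and the retinoic acid and CDX list again had 2 higher and 8 lower.

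Noncoding RNAs within the clusters numbered 9 lower and 3 higher of 15 in U2OS. HOXB-AS3 was at 16.8 CPM in HEK293T and 0.374 CPM in U2OS, HOTAIRM1 at 62.1 and 11.8 CPM, and HOXA11-AS at 13.8 and 2.22 CPM. HOTAIR, transcribed from the HOXC cluster, was higher in U2OS at 31.5 against 18.2 CPM (log2 fold change 1.02, SE 0.15, adjusted p 4.484e-07). Antisense RNAs and the HOX genes opposite them, 19 members in all, are uncertain, since the kit keeps strand but the strand setting of the counting is not given in the sources used here. After CPT in U2OS the lists held 0 of 8 TALE cofactors, 3 of 20 Polycomb genes (all lower), 0 of 13 MLL and demethylase genes, 3 of 12 retinoic acid and CDX genes (all higher) and 1 of 14 noncoding RNAs (lower), where 7.97% of all genes were called higher and 5.5% lower. CBX2, a Polycomb subunit that reads H3K27 methylation, fell from 33.7 to 10.8 CPM (log2 fold change -1.44, SE 0.18, adjusted p 1.888e-07), PHF19, a Polycomb partner, from 59.5 to 24.7 CPM (-1.10, SE 0.14, adjusted p 1.643e-07), and CRABP2, a retinoic acid carrier, rose from 6.18 to 10.8 CPM (1.03, SE 0.25, adjusted p 0.00144).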

How the data were processed

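RNA was measured in 32 HEK293T and U2OS libraries prepared with the QuantSeq 3′ kit with unique molecular identifiers. The authors deposited counts per gene from the Lexogen QuantSeq pipeline 2.3.1, per the labels, and not normalized. The genome build and annotation were not given in the sources used here. Besides the 60107 genes, 5 summary rows, which held 10.9% to 40.6% of the counts of a library, and 92 spike-in rows were left out. Symbols of 56531 genes came from the name table, and gene positions and exon overlaps from GENCODE 29 (GRCh38).

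The counts were tested with the quasi-likelihood test of edgeR 4.0.16 in R 4.3.3, with TMM normalization factors and genes over 1 count in at least 2 libraries. The filter and cutoffs follow the study, whose own test in edgeR was the likelihood ratio test. P-values were adjusted by Benjamini-Hochberg over all genes tested, and a gene was called at an adjusted p under 0.05 with a log2 fold change above 1 or below -1. The test was tried on simulated data. DESeq2 1.42.0, the likelihood ratio test, other scalings and filters, all libraries in 1 fit and leaving out each library were alternatives. Scaling by total counts alone was added after seeing the data. Library depth was 1232674 to 6362433 counts, and intervals and floors cover counting error only.

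The members and lists were chosen with earlier results of these data known. All 39 members enter the counts, fits and cluster sums, and the values of 1 of them are not reported here. Full statistics are given for members called with a mean of at least 10 CPM in 1 group, at most 8 per comparison by fold, and for the leading gene of each cluster in libraries 22 to 25 and 30 to 33. Members named outside this rule, such as HOXD11, HOXD9, HOXA2 and HOXC11 between the lines, were chosen after their values were seen. Of the other lists at most 4 called genes are named. Groups come from the labels. Because the profiles of libraries 1 to 17 go against those labels, sets by library number were compared too.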

Additional observations from a re-analysis of the deposited data

Results flagged for a closer look

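Of 151 groups of 4 libraries examined, 8 had 1 library far from the other 3, and chance alone flags about 1 in 20 such groups. Library 30 (U2OS DMSO) stood high for HOXA5 at 13.9 CPM, where the other 3 were at 6.54 to 7.21 CPM, and for HOXB6 at 19.8 CPM, where the others were at 11.7 to 12.6 CPM. Library 7 stood high for HOXA7 at 14.5 CPM (others 8.76 to 9.52 CPM) and for HOXA10 at 48.8 CPM (others 26.8 to 28.2 CPM). HOXB4 was at 8.11 CPM in library 2, the shallowest one, beside 1.89 to 2.43 CPM in libraries 4, 6 and 8. HOXC6 was at 121 CPM in library 8 beside 113 to 114 CPM. HOXD13 was at 0.310 CPM in library 27 and 0.344 CPM in library 31, each a single count among libraries at 0.

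The contrast of CPT in U2OS and that of libraries 10, 12, 14 and 16 against 11, 13, 15 and 17 differed, by edgeR's test of the difference with Benjamini-Hochberg adjustment over all genes, for HOXC11 (-2.002), HOXA7 (-1.65), HOXC10 (-1.40), HOXC9 (-1.40) and HOXA9 (-1.24 on the log2 scale). In each of the 5 genes the U2OS contrast was the lower of the pair.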

How the results depend on the processing

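Leaving out 1 library at a time gave 21 to 23 members called between the lines under DMSO, 18 to 21 between libraries 1, 3, 5 and 7 and 11, 13, 15 and 17, 3 to 6 for CPT in U2OS, 3 to 4 for libraries 10, 12, 14 and 16, 0 to 2 for libraries 2, 4, 6 and 8, 0 to 15 for labelled HEK293T CPT, 0 to 3 for labelled U2OS ATM knockout, 8 to 12 for the difference of the contrasts and 0 throughout for libraries 18 to 21. With no fold cutoff the calls were 14 for CPT in U2OS, 19 for libraries 10, 12, 14 and 16 and 8 for libraries 2, 4, 6 and 8. For libraries 10, 12, 14 and 16, edgeR's stricter count filter left 2 calls. The single call of libraries 2, 4, 6 and 8 became 2 with the likelihood ratio test, 0 with RLE scaling, 2 with total counts alone, 0 with no filter and 4 with all libraries in 1 fit. Labelled HEK293T CPT gave 12 with the likelihood ratio test and 14 with DESeq2, beside 2984 and 2903 of all genes. Labelled U2OS ATM knockout gave 3 with the likelihood ratio test and 2 each with RLE scaling, DESeq2 and the stricter filter. Calls over all genes in the same order were 1755, 700, 1120 and 651. Between the lines 2 remained called with all 8 labelled HEK293T DMSO controls, beside 339 of all genes, and HOXC6 turned to 0.0393. With the same controls libraries 18 to 21 had log2 fold changes of 0.64 (HOXA5), 0.56 (HOXB9), 0.19 (HOXC6), 0.38 (HOXA10) and 0.29 (HOXB3), all opposite in sign to the values with libraries 22 to 25 alone. HOXB3 after CPT, near 0, turned to -0.0017 with DESeq2, -0.17 with total counts alone and -0.0062 with all libraries in 1 fit, and ran from -0.1251 to 0.0954 with 1 library left out. HOXA5 after CPT ran from -0.405 to 0.0235 with 1 library left out, the latter without library 30. HOXB3 turned to -0.24 with total counts alone in libraries 1, 3, 5 and 7 against 11, 13, 15 and 17, where HOXD10 turned to 0.0123 with the stricter filter, and in libraries 2, 4, 6 and 8 it ran from -0.0739 to 0.2287 with 1 library left out, below 0 without library 4 or 6. The cause of these changes was not tested. Of the other log2 fold changes 987 kept direction and call, 53 lost the call and 9 gained it. Summed cluster levels moved by over 1 SD in 12 of 16 rescalings. Adding the left-out rows to a library's total lowers every sum by construction, so such a move does not test the difference between sets. With those rows in the total, HOXA averaged 600 CPM in libraries 22 to 25 and 71.5 CPM in 30 to 33, beside 830 and 112 CPM. No paired analysis was made, because the labels give the groups no shared replicate numbers. Libraries 7 and 8 each had the highest summed HOXA level of their set, at 158 and 136 CPM, and a pairing by library number was not tested. Levels under 2.43 CPM are limited by depth.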

Other observations

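The genes that flank the clusters were followed as a further list. Between the lines under DMSO, 3 of 10 tested neighbours were lower in U2OS and 1 higher, beside 39.9% of all genes called by edgeR. SKAP2, which lies next to the low-numbered end of HOXA, averaged 101 CPM in HEK293T and had 0 counts in all 4 U2OS libraries, where a count of 0 allows up to 0.721 to 1.03 CPM per library. In the other libraries it averaged 114 CPM in 11, 13, 15 and 17 and 0.177 CPM in 1, 3, 5 and 7. HNRNPA1, a splicing regulator beyond the end of HOXC, was at 677 CPM in HEK293T and 237 CPM in U2OS. After CPT in U2OS 2 of 10 neighbours were higher, where 7.97% of all genes were called higher, among them CALCOCO1 beside HOXC at 22.9 against 10.7 CPM (log2 fold change 1.26, SE 0.18, edgeR adjusted p 9.522e-07). None of 9 was called in libraries 18 to 21.

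In libraries 10, 12, 14 and 16 against 11, 13, 15 and 17, where 9.52% of all genes were called higher, 3 of 15 noncoding RNAs of the clusters were higher, with HOXA-AS2 at 10.97 against 4.28 CPM and HOXA-AS3 at 12.3 against 5.06 CPM, and 3 of 15 retinoic acid and CDX genes were higher, with CRABP2 at 55.8 against 26.9 CPM. In libraries 2, 4, 6 and 8 against 1, 3, 5 and 7 CRABP2 was at 23.9 against 9.17 CPM and STRA6, a retinol transporter, at 18.1 against 7.54 CPM. The Polycomb gene BMI1 was at 158 against 67.3 CPM and the MLL-family gene KMT2C at 104 against 49.2 CPM in the same sets. Calls there were 2 of 11 retinoic acid and CDX, 1 of 20 Polycomb and 1 of 13 MLL and demethylase genes, all higher. Of all genes 2.8% were called higher. The Polycomb and the MLL and demethylase lists had median log2 fold changes of 0.01 and 0.05.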
